A study of Drosophila melanogaster with 39 samples.

Results

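The genes described here are the aminoacyl-tRNA synthetase genes of *Drosophila melanogaster*, taken as every gene name in the deposited count table that starts with Aats- or has the form of an amino acid code followed by RS. The rule found 22 of the 17559 genes in the table, all of them under the older Aats- names, and all 22 were expressed highly enough to be tested among 10272 genes. By their current symbols 7 of the 22 end in -m and are called mitochondrial here, and the other 15 are called cytosolic. A symbol without -m does not tell whether the gene also supplies mitochondria. The older names hide part of this division. Aats-ser, Aats-pro, Aats-met, Aats-leu and Aats-phe carry no mark of the compartment but are now named SerRS-m, ProRS-m, MetRS-m, LeuRS-m and PheRS-m, and only Aats-ala-m and Aats-tyr-m show it in the older name.

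An aminoacyl-tRNA synthetase joins an amino acid to the transfer RNAs that read its codons, and the charged transfer RNA then carries it to the ribosome. Cytosolic enzymes serve the ribosomes that translate nuclear messages, whereas mitochondrial enzymes, also encoded in the nucleus, charge the transfer RNAs of the mitochondrial genome. When charging falls behind, uncharged transfer RNA activates the kinase Gcn2, which sets off the integrated stress response, and in mammals many synthetase genes and the asparagine synthetase gene are targets of its transcription factor ATF4. In people, inherited changes in several synthetases, among them those for glycine and tyrosine, cause peripheral neuropathy, and loss of the fly mitochondrial methionine enzyme is known to damage the eye.

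The table covers 20 amino acids in the cytosol when all synthetase genes are counted. A further 13 synthetase genes stand in it under CG numbers and so lie outside the naming rule, 5 of them cytosolic and 8 mitochondrial. With these the table holds 35 synthetase genes. A mitochondrial symbol exists for 15 of the 20 amino acids, and glutamine, glycine, histidine, lysine and threonine have none. Members for these amino acids are counted as cytosolic, and whether any of them serves both compartments was not examined.

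Each library was made from polyadenylated RNA of a single head of an adult male fly of the genotype Cantonized w1118, so replicates are separate flies. The question set by the labels is how heads differ with place preference, classed as High, Mid or Low, and between naive and shocked flies. Counts were available for naive heads, 7 of Mid and 7 of High preference, and for shocked heads, 9 of Low, 8 of Mid and 6 of High preference. All had the same genotype, sex and batch date. The sources used here give neither the age of the flies nor the bounds of the preference classes. One protocol text is attached to every sample, naive ones included, and it describes 60 V shocks for 5 min, a preference assay at 1.5 h and freezing at 2.5 h. The division into naive and shocked therefore rests on the sample titles.

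Libraries held 5.01 to 11.32 M counted reads (M, megareads), with group medians from 7.21 M in shocked Low to 8.5 M in shocked Mid heads. For neurons, glia and photoreceptors 1 marker each is given here, present in all 37 libraries. The pan-neuronal gene elav ranged from 81.3 to 194 counts per M (CPM), the glial gene repo from 38.9 to 79.0 CPM and the photoreceptor opsin gene ninaE from 28719 to 49744 CPM. Some other listed markers fell to 0 CPM in the lowest head: the fat body gene Fbp1, the muscle gene TpnC4 and the haemocyte gene NimC1. The lowest values were 1.17 CPM for the glial gene alrm and 0.212 CPM for the antennal gene Obp19a. Summed antennal markers ran from 26.98 to 1418 CPM between heads and summed fat body markers from 1101 to 11073 CPM, and both had a higher median in shocked Mid than in shocked High heads (929 against 261 CPM for 6 antennal genes, and 4871 against 2866 CPM for 8 fat body genes). Their part in any difference between these groups was not tested. In RNA from a whole head, fewer cells of a type cannot be told apart from less RNA per cell.

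Levels are compared between genes per kb of exon, since longer messages give more reads. Exon length counts every base that is exon in any annotated transcript of the gene. Cytosolic synthetases had a median of 19.7 CPM per kb, mitochondrial ones 7.51 and all tested genes with an annotated length 13.2. The aspartate enzyme gene Aats-asp and the threonine enzyme gene Aats-thr stood highest, at 45.4 and 43.6 CPM per kb. They were the only 2 cytosolic genes above the highest mitochondrial gene, Aats-phe, at 36.4 CPM per kb. Next came Aats-asn at 33.2, Aats-lys at 32.1, Aats-tyr at 31.4 and Aats-trp at 27.8 CPM per kb, which charge asparagine, lysine, tyrosine and tryptophan transfer RNAs.

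The other 9 cytosolic genes filled the range below them. Aats-his stood at 21.8, Aats-ala at 19.7, Aats-val at 18.3 and Aats-gly at 17.8 CPM per kb. Aats-ile reached 15.3, Aats-gln 13.2 and Aats-glupro 12.96 CPM per kb, the last of which encodes both the glutamate and the proline enzyme in a single protein. The cysteine gene Aats-cys and the arginine gene Aats-arg were the lowest cytosolic members, at 9.73 and 8.85 CPM per kb. Apart from Aats-phe the mitochondrial genes were low. Aats-leu stood at 10.3 and Aats-ser at 9.05 CPM per kb, and the other 4 mitochondrial genes lay below every cytosolic one, with Aats-ala-m at 7.51, Aats-tyr-m at 7.17, Aats-pro at 6.45 and Aats-met at 3.18 CPM per kb.

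**Figure D1:**
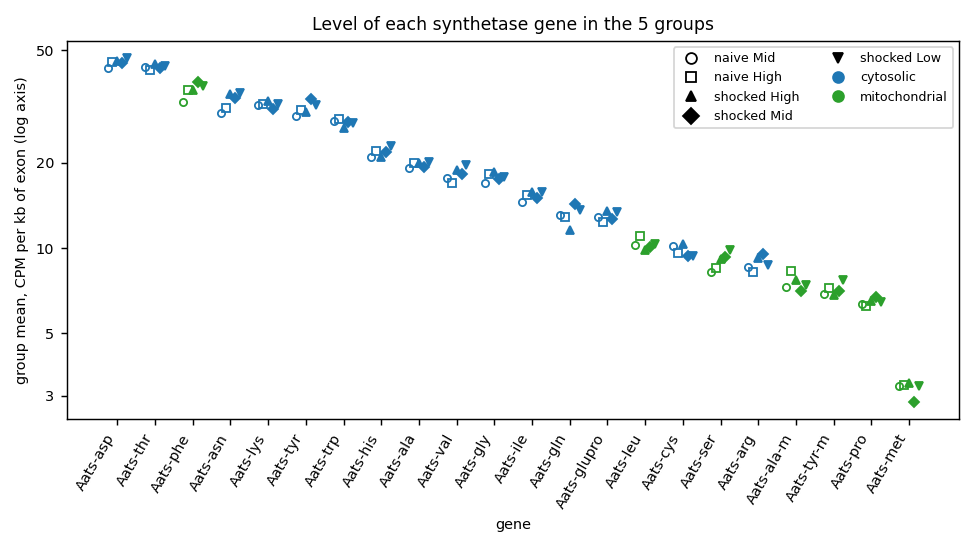
Mean level of each of the 22 synthetase genes in each of the 5 groups, in CPM per kb of exon on a log axis, with genes ordered from the highest to the lowest overall mean. Blue symbols are cytosolic and green symbols mitochondrial genes. The 5 symbols of a gene lie close together compared with the distance between genes, from Aats-asp at 45.4 to Aats-met at 3.18 CPM per kb.

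Some of these levels are uncertain, up or down, where exons are shared with a neighbouring gene. For genes on opposite strands this depends on whether reads were counted by strand, which the sources used here do not say. In the annotation 9 members share exon bases with another gene and 13 share none. For Aats-asp, 63.9% of the exon bases are also covered by the antisense RNA asRNA:CR45141 on the opposite strand, and 6.8% by asRNA:CR43468 on the same strand. The share was 16.6% for Aats-glupro with asRNA:CR46092 and 13.9% for Aats-ser with Nagk, both on the opposite strand. It was 8.91% for Aats-his with Bx on the same strand, and under 4% for the other 5. The level of Aats-asp is the least certain of the 22 for this reason.

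Levels were steady between flies. Within groups, the SD of log2 CPM had a median of 0.19 over the 22 genes, against 0.25 over all tested genes. Aats-thr varied least, with an SD of 0.13, and Aats-pro, a low mitochondrial gene, varied most, with 0.35. Only Aats-pro and Aats-tyr-m exceeded the median of all tested genes. The ratio of the highest to the lowest of the 5 group means had a median of 1.11 over the synthetases and 1.18 over all tested genes. That ratio ran from 1.05 for Aats-ala to 1.24 for Aats-gln. The median level was 51.2 CPM over the synthetases and 28.4 CPM over all tested genes, and neither the SD nor the ratio was compared at matched levels.

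Summed over the 22 genes, synthetase messages made up 1055 ± 102 CPM (SD, n = 7) in naive Mid heads and 1081 ± 93.8 CPM (n = 7) in naive High heads. Among shocked heads the sum was 1121 ± 49.7 CPM (n = 9) in the Low, 1094 ± 63.8 CPM (n = 8) in the Mid and 1102 ± 84.1 CPM (n = 6) in the High class. The lowest and the highest of these means differed by less than the SD of the naive Mid heads, and every group's range overlapped every other's. The shocked Low heads lay between 1037 and 1201 CPM, inside the naive Mid range of 902 to 1204 CPM.

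No synthetase gene passed the test in any comparison. With edgeR (quasi-likelihood, p-values adjusted by Benjamini-Hochberg over all 10272 genes), 0 of 22 members had an adjusted p under 0.05 in the F test over the 5 groups, where 0.107% of all genes did, and 0 of 22 had an unadjusted p under 0.05, where 12.2% of all genes did. DESeq2 likewise called 0 of 22, against 0.857% of all genes. The smallest p in that test belonged to Aats-gln (adjusted p = 0.484, edgeR). The same held for the 7 contrasts between groups, each of which had 0 of 22 members called by edgeR and 0 by DESeq2.

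The width of the intervals shows what differences these heads could hide. Over 22 genes and 7 contrasts, all 154 of the 95% intervals lay within a 2-fold difference in either direction, and 152 lay within 1.5-fold. The other two belonged to Aats-gln and Aats-met in the interaction contrast, which combines 4 groups. The median standard error of a member's log2 fold change was 0.11.

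**Figure D2:**
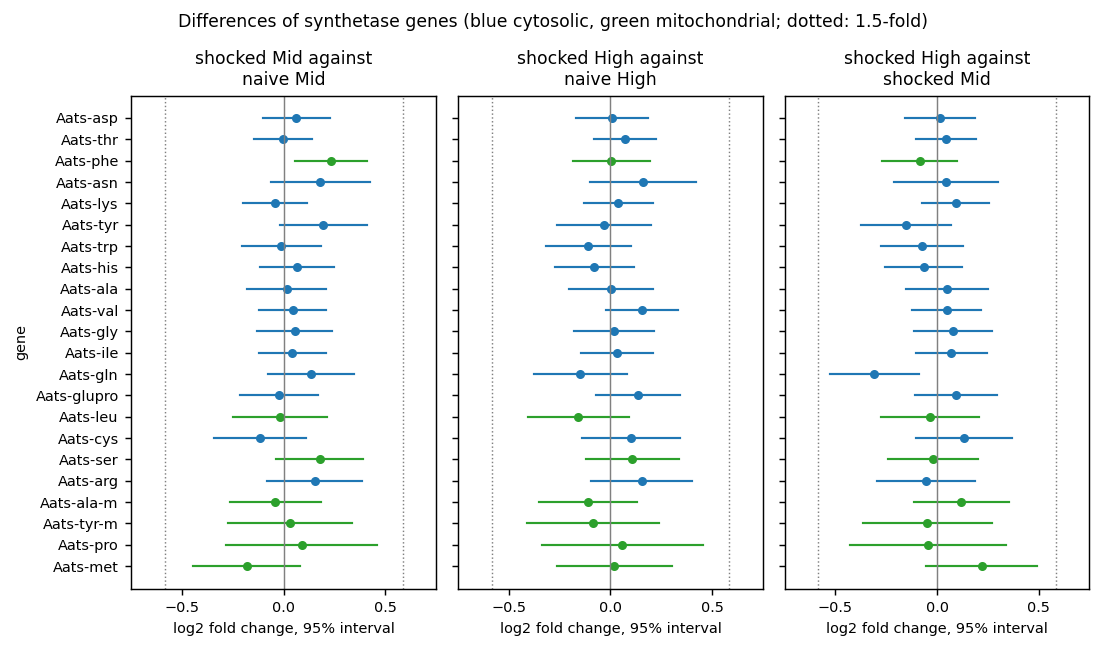
Log2 fold change (points) and 95% interval (lines) of each synthetase gene in 3 contrasts, with cytosolic genes in blue, mitochondrial genes in green and dotted lines at 1.5-fold. Only the intervals of Aats-phe in shocked against naive Mid heads and of Aats-gln in shocked High against shocked Mid heads leave 0 out, and neither gene passed the adjusted threshold.

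Shock in heads of Mid preference was the comparison in which Aats-phe and Aats-tyr came nearest to a difference. Of the 15 cytosolic genes 10 had a positive and 5 a negative log2 fold change in shocked against naive Mid heads, with a median of 0.04, and of the 7 mitochondrial genes 4 were positive, with a median of 0.03. Over all genes 52.6% were positive. In this contrast edgeR called 0 of 22 members against 0.0195% of all genes, and 1 of 22 had an unadjusted p under 0.05 against 13.1% of all genes.

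That gene was Aats-phe (PheRS-m; dm6 chromosome 2R, 13968308 to 13969902, plus strand, 1 annotated transcript), which charges the phenylalanine transfer RNA of mitochondria. Naive Mid heads held from 39.9 to 56.8 CPM with a median of 51.6, and shocked Mid heads from 47.9 to 64.9 CPM with a median of 60.1. The upper shocked heads exceeded every naive head, and the ranges overlapped between 47.9 and 56.8 CPM. The means were 50.1 ± 5.69 CPM (SD, n = 7) and 58.8 ± 6.20 CPM (n = 8), with 7 of 8 shocked heads above the naive mean and 7 of 7 naive heads below the shocked mean. The log2 fold change was 0.23 (SE 0.09, 95% interval 0.06 to 0.41), with an adjusted p = 0.272 in edgeR.

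The Aats-phe means of the other groups lay between these. Naive High heads averaged 55.2 ± 8.59 CPM (range 41.6 to 63.7, median 59.4), shocked High heads 55.4 ± 3.76 CPM (range 52.0 to 60.9, median 53.9) and shocked Low heads 57.1 ± 5.60 CPM (range 46.3 to 64.9, median 58.8). The shock difference in High heads was 0.00 on the log2 scale (95% interval -0.18 to 0.19). The interaction, the shock difference in High minus that in Mid, was -0.23 (interval -0.49 to 0.03, adjusted p = 0.468, edgeR) and did not pass the test. By the protocol text preference was assayed at 1.5 h, so shocked flies may have been classed after the shock. The shock differences in Mid and in High heads, and the interaction between them, therefore need not measure how a fixed class of fly responds.

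Aats-tyr (TyrRS; chromosome 3L, 16417349 to 16419302, minus strand), the cytosolic tyrosine enzyme, had the second smallest p in shocked against naive Mid heads. Naive Mid heads ranged from 44.1 to 70.3 CPM with a median of 51.0, and shocked Mid heads from 54.2 to 68.0 CPM with a median of 59.2. All 8 shocked heads lay above the naive mean, but the highest naive head exceeded all of them. The means were 52.0 ± 9.21 and 59.5 ± 4.16 CPM, and the log2 fold change was 0.19 (SE 0.11, interval -0.02 to 0.41, adjusted p = 0.422, edgeR). In the other groups Aats-tyr averaged 54.7 ± 10.3 CPM (naive High), 53.5 ± 9.12 CPM (shocked High) and 56.9 ± 6.04 CPM (shocked Low).

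Shocked against naive heads of High preference gave no call among the synthetases. Of 15 cytosolic genes 11 had a positive log2 fold change, with a median of 0.03, and of 7 mitochondrial genes 4 did, with a median of 0.00, against 48.3% of all genes. In edgeR 0% of all genes were called and 5.66% had an unadjusted p under 0.05, compared with 0 and 0 of the 22 members.

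The valine enzyme gene Aats-val (ValRS; chromosome 2R, 13198850 to 13202709, plus strand) had the smallest p. Naive High heads ranged from 47.4 to 68.1 CPM with a median of 57.0, and shocked High heads from 56.3 to 73.8 CPM with a median of 62.1. The ranges overlapped over most of their length. Means were 57.9 ± 6.38 and 64.4 ± 7.75 CPM, and the log2 fold change was 0.15 (SE 0.09, interval -0.02 to 0.33, adjusted p = 0.863, edgeR). For Aats-gln, the next in order, it was -0.15 (SE 0.11, interval -0.38 to 0.08, adjusted p = 0.881, edgeR).

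Shock differences in the classes were also set against each other. In the interaction contrast 0% of all genes were called by edgeR and 12.3% had an unadjusted p under 0.05, against 0 and 0 of 22 members. The log2 values were negative for 9 of 15 cytosolic and 6 of 7 mitochondrial genes, with medians of -0.01 and -0.07. Over all genes 47.7% were positive. Aats-gln had the smallest p, with an interaction of -0.28 (SE 0.15, interval -0.59 to 0.03, adjusted p = 0.452, edgeR).

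Naive heads of High and Mid preference were compared to ask whether preference alone went with a difference. EdgeR called 0% of all genes, and 3.09% of all genes had an unadjusted p under 0.05, against 0 and 0 of 22 synthetases. A positive value was found for 9 of 15 cytosolic and 6 of 7 mitochondrial genes, against 49.6% of all genes, with medians of 0.02 and 0.07. Aats-ala-m (AlaRS-m; chromosome 3L, 5146098 to 5149852, plus strand), the mitochondrial alanine enzyme, had the smallest p. It ranged from 17.97 to 26.5 CPM in naive Mid heads with a median of 24.6, and from 20.3 to 35.5 CPM in naive High heads with a median of 26.2. The means were 23.5 ± 2.74 and 26.7 ± 4.84 CPM, and the log2 fold change was 0.19 (SE 0.11, interval -0.04 to 0.42, adjusted p = 1.00, edgeR). Second came Aats-phe, at 0.14 (SE 0.09, interval -0.04 to 0.32).

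The difference nearest to the threshold was that of Aats-gln between shocked High and shocked Mid heads. Aats-gln (GlnRS; chromosome 3R, 25263267 to 25265721, minus strand, 1 annotated transcript) encodes the cytosolic enzyme for glutamine. In the 6 shocked High heads its level ran from 25.3 to 33.8 CPM with a median of 27.3, and in the 8 shocked Mid heads from 28.7 to 40.0 CPM with a median of 35.7. All 6 High heads lay below the Mid mean and all 8 Mid heads above the High mean, although the ranges overlapped between 28.7 and 33.8 CPM. Because Aats-gln was named by its p in these same heads, this count of sides is not separate support.

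The means of Aats-gln were 28.5 ± 3.65 CPM (SD, n = 6) and 35.3 ± 3.93 CPM (n = 8). The log2 fold change was -0.31 (SE 0.11, interval -0.53 to -0.09), with an adjusted p = 0.126 in edgeR (0.0568 to 0.269 over the alternatives). Shocked High heads were also the lowest of the 5 groups for this gene, next to 32.1 ± 5.26 CPM in naive Mid, 31.6 ± 5.20 CPM in naive High and 33.6 ± 4.15 CPM in shocked Low heads. The ranges of those 3 groups overlapped with both.

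In the same contrast 0 of 22 synthetases were called by edgeR, against 0.0681% of all genes, and Aats-gln was the 1 member of 22 with an unadjusted p under 0.05, against 17.5% of all genes. Cytosolic genes had a median log2 fold change of 0.04, with 10 of 15 positive, and mitochondrial genes -0.03, with 2 of 7 positive, whereas 48.2% of all genes were positive. Second after Aats-gln came Aats-met (MetRS-m; chromosome 3R, 14249043 to 14259991, minus strand). It ranged from 11.1 to 17.4 CPM in shocked High heads with a median of 14.4 and from 9.16 to 15.1 CPM in shocked Mid heads with a median of 13.2. The means, 14.4 ± 2.05 and 12.3 ± 2.27 CPM, gave a log2 fold change of 0.22 (SE 0.14, interval -0.05 to 0.49, adjusted p = 0.422, edgeR).

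Heads of Low preference after shock were compared with both other shocked groups. Against shocked Mid heads edgeR called 0 of 22 members and 0.0195% of all genes, and 0 of 22 had an unadjusted p under 0.05 against 14% of all genes. Values were positive for 10 of 15 cytosolic and 5 of 7 mitochondrial genes, with medians of 0.05 and 0.07, against 51% of all genes. Aats-met, with shocked Low heads at 13.99 ± 2.42 CPM (range 10.7 to 18.2, median 13.6), had a log2 fold change of 0.18 (SE 0.12, interval -0.07 to 0.43, adjusted p = 0.534, edgeR). Aats-val, with shocked Mid heads at 62.4 ± 7.76 CPM (range 53.8 to 74.4, median 59.9) and shocked Low heads at 66.8 ± 5.30 CPM (range 62.3 to 78.1, median 65.0), had 0.10 (SE 0.08, interval -0.05 to 0.26, adjusted p = 0.588, edgeR).

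Against shocked High heads, shocked Low heads again differed most in Aats-gln. Shocked Low heads ranged from 26.6 to 40.3 CPM with a median of 34.0, and 8 of 9 lay above the shocked High mean. The log2 fold change was 0.23 (SE 0.11, interval 0.02 to 0.45), with an adjusted p = 0.998 in edgeR. This contrast and the one against shocked Mid heads share the same 6 shocked High heads. EdgeR called 0% of all genes here, and 4.4% had an unadjusted p under 0.05, against 1 of 22 members.

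Values were positive for 9 of 15 cytosolic and 4 of 7 mitochondrial genes in shocked Low against shocked High heads, with medians of 0.01 and 0.04, against 53.5% of all genes. Aats-his (HisRS; chromosome X, 18515428 to 18520445, plus strand), the histidine enzyme, came second. It averaged 59.8 ± 8.06 CPM in shocked High heads (range 50.2 to 72.5, median 59.6) and 65.8 ± 4.91 CPM in shocked Low heads (range 59.6 to 73.5, median 64.8). The log2 fold change was 0.14 (SE 0.09, interval -0.05 to 0.32, adjusted p = 0.998, edgeR).

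**Figure D3:**
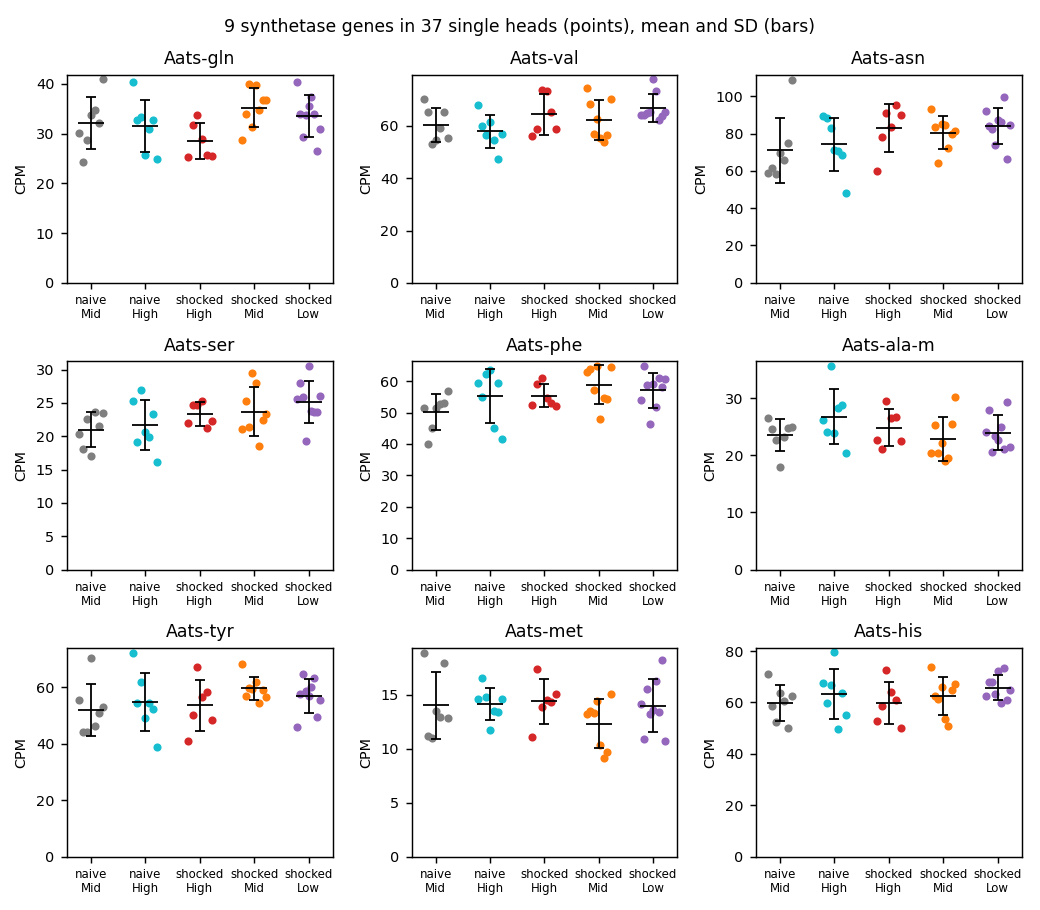
CPM of 9 synthetase genes in each of 37 single heads (points) by group, with the group mean (long bar) and SD (short bars), on axes that start at 0. Groups overlap for all 9 genes. Aats-gln in shocked High heads, from 25.3 to 33.8 CPM, lies lowest against shocked Mid heads, from 28.7 to 40.0 CPM.

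For none of the 22 genes did any pair of compared groups fail to overlap. In shocked against naive Mid heads 0.428% of all tested genes had groups that did not overlap, and in shocked High against shocked Mid heads 0.720% did. Naive High against naive Mid heads gave 0.0584%, and the other 3 pairs of groups gave 0.0195% to 0.0876%.

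The F test over the 5 groups named a pair of further genes by rank. Aats-asn (AsnRS; chromosome 2L, 19129469 to 19131954, minus strand), the asparagine enzyme, had the third smallest p of the cytosolic genes (adjusted p = 0.636, edgeR). It averaged 71.0 ± 17.6 CPM in naive Mid and 74.1 ± 14.4 CPM in naive High heads. Shocked heads averaged 84.1 ± 9.66 CPM in the Low, 80.4 ± 8.85 CPM in the Mid and 82.9 ± 12.8 CPM in the High class. All 3 shocked means exceeded both naive means, but the ranges overlapped. Shocked Low heads ranged from 66.3 to 99.7 CPM, and naive High heads from 48.1 to 89.3 CPM with a median of 71.3. The lowest naive High value was that of the single library Naive_High 7, and the next head stood at 68.3 CPM. The naive Mid range of 58.3 to 109 CPM had its top in the single library Naive_Mid 7, and the other 6 heads reached at most 74.7 CPM, with a mean of 64.7 ± 6.47 CPM. The shock differences were 0.18 (SE 0.12, interval -0.07 to 0.42) in Mid and 0.16 (SE 0.13, interval -0.10 to 0.42) in High heads on the log2 scale. Without Naive_Mid 7 the difference in Mid heads was 0.31 (SE 0.11, adjusted p = 0.277, edgeR), and the adjusted p of the F test was 0.263. That was the smallest F test value over the 37 settings that leave out a library, which ran from 0.263 to 0.759 (adjusted p, edgeR).

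Aats-ser (SerRS-m; chromosome 3R, 15340667 to 15343218, plus strand), the mitochondrial serine enzyme, had the smallest p of the mitochondrial genes (adjusted p = 0.505, edgeR). Naive Mid heads averaged 20.97 ± 2.61 CPM (range 16.99 to 23.7, median 21.6) and naive High heads 21.7 ± 3.75 CPM (range 16.2 to 26.98, median 20.6). Shocked High heads averaged 23.4 ± 1.78 CPM (range 21.2 to 25.3), shocked Mid heads 23.7 ± 3.65 CPM (range 18.6 to 29.5) and shocked Low heads 25.1 ± 3.16 CPM (range 19.2 to 30.5). The order of the means resembled that of Aats-asn in having the naive groups lowest, and all groups overlapped. The shock differences were 0.18 (SE 0.11, interval -0.04 to 0.39) in Mid and 0.11 (SE 0.11, interval -0.12 to 0.34) in High heads.

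The authors' deposited table gave the same picture in its own terms. It holds 10 comparisons between pairs of the 5 groups, hence 220 values for the 22 genes, and 0 of these had a q-value under 0.05, while 127 had a q-value of 1. In the authors' deposited table the log2 fold changes of synthetases ran from -0.23 to 0.30. The smallest q-value in the authors' deposited table, 0.0787, was that of Aats-gln between shocked High and shocked Mid heads.

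The 13 synthetase genes under CG numbers gave no call either. EdgeR and DESeq2 called 0 of 13 in each of the 8 comparisons, and 0 or 1 of 13 had an unadjusted p under 0.05 in edgeR. Of all genes DESeq2 called 0.204% for shock in Mid heads, 0% in High heads, 0.0292% in the interaction, 0% between naive High and Mid heads, and 3.02%, 1.46% and 0% in shocked High against Mid, Low against Mid and Low against High heads. Their median log2 fold change was 0.06 for shock in Mid heads, -0.02 for shock in High heads and 0.04 for shocked High against shocked Mid heads. One of the 13, CG5414, now IleRS-m, the mitochondrial isoleucine enzyme, had an unadjusted p under 0.05 over the 5 groups (adjusted p = 0.372, edgeR). It ran from 7.55 ± 1.31 CPM in naive Mid to 10.8 ± 2.32 CPM in shocked High heads, with 9.83 ± 1.74 CPM in naive High, 8.51 ± 1.998 CPM in shocked Mid and 8.62 ± 1.80 CPM in shocked Low heads. The High groups had the highest means, naive and shocked.

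Proteins that work beside the synthetases were taken as lists. Of 6 partners of the enzymes (the 3 scaffold proteins of the multisynthetase complex and the 3 subunits of the amidotransferase that makes charged glutamine transfer RNA in mitochondria), 5 were tested. EdgeR and DESeq2 called 0 of them in every comparison, and 0 had an unadjusted p under 0.05. CG12304, now AIMP2, a scaffold protein, had the smallest F test p, and its log2 fold change for shock in Mid heads was 0.17 (SE 0.09, adjusted p = 0.387, edgeR). Of 9 mitochondrial translation factors both tools also called 0 in every comparison, with 0 at an unadjusted p under 0.05 in edgeR. The smallest F test p was that of ico, a mitochondrial elongation factor G (adjusted p = 0.569, edgeR).

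Cytosolic elongation factors, which deliver charged transfer RNA to the ribosome and move the ribosome along, had larger values than the synthetases. Between shocked High and shocked Mid heads their median log2 fold change was -0.39 over 7 genes, with 6 negative and Ef1alpha100E positive at 0.17. EdgeR called 0 of 7 at an adjusted p under 0.05, whereas 7 of 7 had an unadjusted p under 0.05, against 17.5% of all genes. DESeq2 called 2 of 7 and 3.02% of all genes (310), where edgeR called 0.0681% (7). The count of elongation factors called by edgeR was 6 without the library Shocked_High 3, with a median of -0.54, and 1 without Shocked_Mid 8. Among all genes edgeR then called 5.3% (548) and 0.887% (91). The gene with the smallest p was eIF-5A, now eEF5, which helps ribosomes past stalled sites. It ranged from 287 to 454 CPM in shocked High heads with a median of 348 and from 405 to 721 CPM in shocked Mid heads with a median of 514. The log2 fold change was -0.55 (SE 0.15, adjusted p = 0.0720, edgeR). Shocked Low against shocked Mid heads gave similar values, with a median of -0.30 and 6 of 7 negative. All 7 had an unadjusted p under 0.05 in edgeR, against 14% of all genes. EdgeR called 0 of 7 (0.0195% of all genes) and DESeq2 2 of 7 (1.46%). Both contrasts share 8 shocked Mid heads. For shock in High heads the median was -0.21, with 6 of 7 negative and 0 at an unadjusted p under 0.05 (edgeR).

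Tissue markers also had values of both signs. Between shocked High and shocked Mid heads all 6 antennal genes (median -1.19) and all 7 tested fat body genes (median -0.72) had negative values, and all 8 neuronal genes (median 0.18) and all 7 tested muscle genes (median 0.14) positive ones. Smaller medians were found for photoreceptor genes (0.05, 7 of 8 positive), glial genes (-0.05, 1 of 6 positive) and haemocyte genes (0.04, 3 of 6 positive). EdgeR called 1 of all these marker genes, the fat body gene Lsp2. Shocked Low against shocked Mid heads also gave negative values for all 6 antennal genes (median -0.61) and all 7 tested fat body genes (-0.76). Positive values there were found in 7 of 8 neuronal (0.12), 6 of 8 photoreceptor (0.13) and 4 of 7 muscle genes (0.02). Glial and haemocyte genes were each positive in 1 of 6 (-0.07 and -0.27). For shock in Mid heads, where the elongation factors had a median of 0.27, antennal genes were positive in 6 of 6 (median 0.60) and fat body genes in 6 of 7 (0.44). Glial genes were positive in 5 of 6 (0.06) and neuronal genes in 0 of 8 (-0.16). Photoreceptor genes were positive in 3 of 8 (-0.02), muscle genes in 3 of 7 (-0.10) and haemocyte genes in 2 of 6 (-0.20). EdgeR called 0 genes of these lists in that contrast. The part of these tissues in the values of the elongation factors was not tested.

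**Figure D4:**
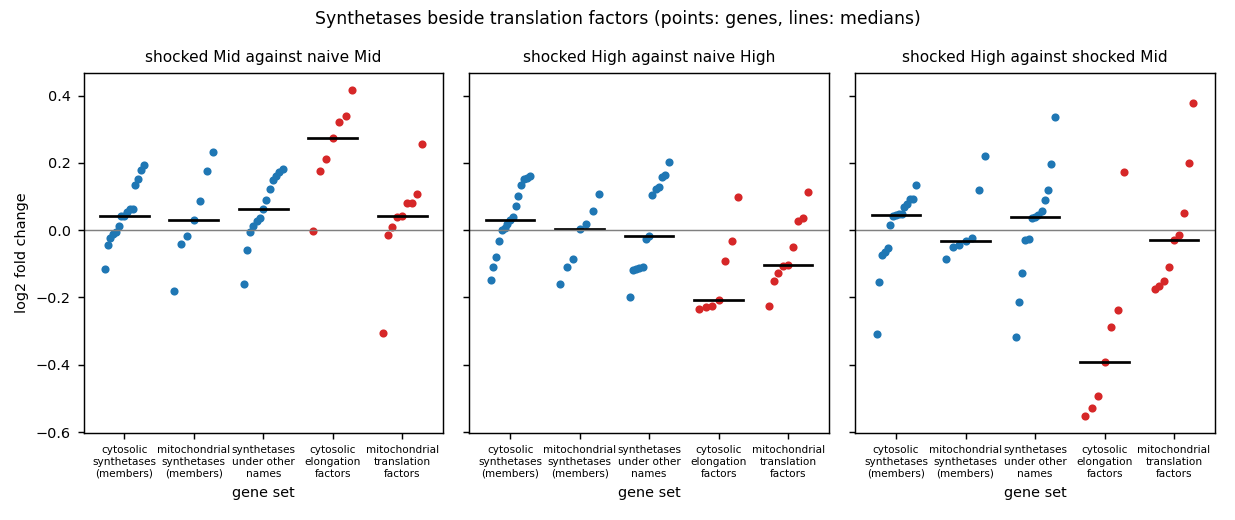
Log2 fold change of single genes (points) and the median of each set (lines) in 3 contrasts, for cytosolic and mitochondrial synthetases, the 13 synthetases under other names, cytosolic elongation factors and mitochondrial translation factors. Synthetase medians lie near 0 in all 3 panels. Cytosolic elongation factors have a median of 0.27 for shock in Mid heads, -0.21 for shock in High heads and -0.39 between shocked High and shocked Mid heads. Shocked Low against shocked Mid heads, where their median was -0.30, are not drawn.

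Regulators and targets linked to amino acid supply were also listed. These lists were drawn up with earlier results of these data known, so their counts of calls are no test of a pathway. Of 12 integrated stress response genes edgeR called 2 for shock in Mid heads, the only genes called among all 10272 (0.0195%). Both were higher in shocked than in naive Mid heads, and the other 10, among them Gcn2 at -0.04 and crc, the fly ATF4, at -0.00, did not pass. The called genes were Nmdmc, a folate enzyme, at 1.81 (SE 0.32, adjusted p = 0.0216, edgeR) and asparagine-synthetase, at 0.74 (SE 0.14, adjusted p = 0.0222, edgeR). Nmdmc was also lower in shocked High than in shocked Mid heads, at -1.81 (SE 0.34, adjusted p = 0.0245, edgeR), and lower in shocked Low than in shocked Mid heads, at -1.94 (SE 0.30, adjusted p = 0.00140, edgeR). For shock in High heads edgeR and DESeq2 called 0 of the 12, and 1 had an unadjusted p under 0.05. Naive Mid heads held 57.5 to 87.8 CPM of asparagine-synthetase and shocked Mid heads 99.4 to 130 CPM, without overlap, while the 22 synthetases in the same heads had log2 fold changes between -0.18 and 0.23. Of 11 genes of TOR signalling and amino acid transport, edgeR called 0 in the F test over the 5 groups, 2 had an unadjusted p under 0.05 and DESeq2 called 1, against 0.857% of all genes; the smallest p was that of path, an amino acid transporter gene (adjusted p = 0.156, edgeR).

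Whether synthetases followed asparagine-synthetase from head to head was asked within groups, with each group's mean removed from log2 CPM. The strongest relation was that of Aats-tyr, with Pearson's r = 0.58 over 37 heads (two-sided permutation p = 0.00117; 0.0142 after Benjamini-Hochberg adjustment over 10271 genes) and Spearman's rho = 0.45 (permutation p = 0.0114, adjusted p = 0.0725). Without the 2 heads farthest from the median of asparagine-synthetase, Shocked_High 3 and Shocked_Low 3, r was 0.51. Within groups r was 0.55 in naive Mid and 0.78 in naive High heads, and among shocked heads it was 0.80 in the High, 0.26 in the Low and -0.04 in the Mid class. It was thus positive in 4 of 5 groups. Of all tested genes 4.05% had a higher r.

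Among the 22 relations tested 1 passed by Pearson's r and 0 by Spearman's rho, against 16% and 12.4% of the 10271 tested genes other than asparagine-synthetase, and 4 and 2 had an unadjusted permutation p under 0.05, against 29.3% and 27%. After Aats-tyr came Aats-gly with r = 0.40 (permutation p = 0.0164, adjusted p = 0.0813), which became 0.26 without the 2 heads. Aats-asn had r = 0.38 and Aats-gln 0.35, neither passing. The lowest was Aats-leu, with r = -0.29. Cytosolic genes had a median r of 0.14, with 12 of 15 positive, mitochondrial genes 0.02, with 5 of 7 positive, and all other tested genes 0.02, with 53.0% positive. These counts moved with the scaling: under RLE factors 10 of 15 cytosolic and 2 of 7 mitochondrial genes were positive, the latter with a median of -0.04. The heads share library composition and depth across all these genes.

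**Figure D5:**
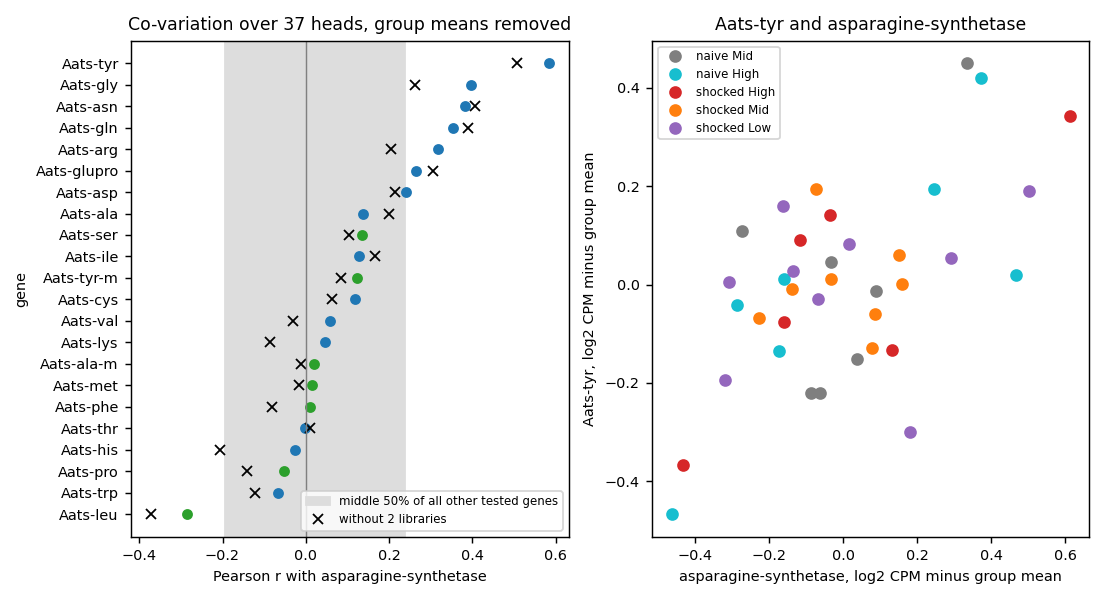
Left, Pearson's r between each synthetase gene and asparagine-synthetase over 37 heads after removal of group means (blue cytosolic, green mitochondrial), with r without 2 heads as crosses and the middle 50% of all tested genes other than asparagine-synthetase in grey. Right, each head's deviation from its group mean in log2 CPM for asparagine-synthetase and Aats-tyr, for which r is 0.58.

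Synthetase genes also varied with each other between heads. The median r of a pair of group-centred levels was 0.30 within the cytosolic genes, with 99 of 105 pairs positive, and 0.21 within the mitochondrial genes, with 18 of 21 positive. Between the compartments it was 0.19, with 85 of 105 positive, and over all pairs of tested genes it was -0.00. The highest values were 0.68 for Aats-asp with Aats-thr, 0.64 for Aats-lys with Aats-his and 0.64 for Aats-phe with Aats-his, a mitochondrial and a cytosolic gene. Aats-leu, the mitochondrial leucine enzyme, took part in the 3 lowest, from -0.24 with Aats-tyr-m to -0.25 with Aats-tyr and Aats-gln. These values are descriptions over shared libraries. The library Shocked_High 3 was the highest of its 6 heads for 12 of 22 members and the lowest for 0, and without it the medians were 0.28, 0.22 and 0.18. Other libraries also lay to one side for most members. Of the 22 members 2 were above the group mean in Naive_Mid 3, 4 in Naive_High 7, 4 in Shocked_High 1 and 19 in Naive_Mid 7. The pairs were not examined without these libraries, nor against pairs of genes of matched level.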

How the data were processed

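Per the series design text, the authors trimmed reads with Trimmomatic, aligned them to dm6 with STAR, removed alignments with a mapping quality below 8 and non-primary ones, and counted reads on exons with HTSeq-count. The sources used here name neither the strand setting nor the tool versions. The deposited counts are whole numbers of reads per gene. A second deposited table gives log2 fold changes with q-values (adjusted p-values) that the authors obtained from DESeq2, per the file headers. The labels also call the library preparation nuclear RNA-seq, which was left unresolved. Of 39 labelled samples 37 had a column; the remaining 2, both shocked High, were not analysed here, and another 2 columns belonged to no labelled sample and stayed unused. Within groups, pairs of libraries differed by a chi-square per gene of 7.94 to 97.0 over 121 pairs, above sampling noise.

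After a filter on low counts (edgeR's filterByExpr, by group), 10272 genes remained and libraries were scaled by TMM. A quasi-likelihood model of 5 groups was fitted to all 37 libraries, with Benjamini-Hochberg adjustment over all tested genes at 0.05. Standard errors were derived from the F statistic. The steps were tested on simulated data. CPM used TMM-scaled library sizes, and log2 CPM a prior count of 2. Correlations were permuted within groups 100000 times, and their p-values were adjusted over all tested genes rather than over the 22 relations as first planned. Genes were named by rule: the 3 cytosolic and 3 mitochondrial members with the smallest F test p, the 2 with the smallest p in each contrast, and from each list those past the threshold or the smallest. Members and lists were chosen with earlier results of these data known. Compartment and current symbols came from the reference name tables (21 members by gene ID, 1 by synonym), and exon lengths and dm6 positions from Ensembl release 115. Synthetase sequences and promoters were not analysed here. Alternatives were RLE factors, no filter, DESeq2, a replicate block, only the groups compared, a prior count of 0.5, and each library left out. Tools were R 4.3.3, edgeR 4.0.16, DESeq2 1.42.0, Python 3.11.15, numpy 2.4.6, pandas 2.3.3 and scipy 1.17.1.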

Additional observations from a re-analysis of the deposited data

Results flagged for a closer look

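The library Naive_Mid 7 stood apart from the other 6 naive Mid heads for Aats-asn, the cytosolic asparagine enzyme, at 109 CPM against 74.7 CPM in the next highest head. The gap covered 0.674 of the group's range. It was the 1 case among 65 sets of values of a single group that were examined in this way. Chance flags about 1 set in 20 under this rule, so 1 case among 65 is no more than chance gives. The same library was above its group mean for 19 of the 22 synthetase genes.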

How the results depend on the processing

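The count of synthetases called stayed at 0 in all 8 comparisons under RLE factors, without a filter, in DESeq2, with the replicate block and, for the 7 contrasts, with only the groups compared, and without each of the 37 libraries. The smallest adjusted p reached by any member was 0.0568, for Aats-gln between shocked High and shocked Mid heads without Shocked_High 3. In that contrast DESeq2 gave 0.0778. Pairs of libraries with the same replicate number, 67 in all, had a median correlation of deviations of 0.02, and 17 exceeded 0.1. Among 478 pairs with different numbers the median was 0.00 and 103 exceeded 0.1. These values cannot decide whether replicate numbers mark a shared condition. With the replicate block the smallest adjusted p of that contrast was 0.112, and 0 of 22 members were called in every comparison, while edgeR called 4 of 7 cytosolic elongation factors there, against 0 without the block, and 748 of 10272 genes, against 7. Under RLE factors r with asparagine-synthetase changed sign for Aats-phe (-0.0602), Aats-val (-0.00672), Aats-met (-0.0307), Aats-lys (-0.0266) and Aats-ala-m (-0.0353), none of which passed in either case, so that 2 of 7 mitochondrial and 10 of 15 cytosolic genes were positive, against 5 and 12; the cause was not tested. Medians of the set near 0 crossed it when single libraries were left out, for example from -0.02 to 0.06 for mitochondrial genes in the contrast of shock in Mid heads. At this number of heads and depth 152 of 154 intervals stayed within 1.5-fold. The settings for elongation factors and for pairs of synthetases were chosen after seeing the data.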
